A study of Mus musculus with 6 samples.

Results

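The genes described here are 4 ligands of the EGF family, *Ereg* (epiregulin), *Areg* (amphiregulin), *Hbegf* (heparin-binding EGF-like growth factor) and *Nrg1* (neuregulin 1), and 3 of their receptors, *Egfr*, *Erbb2* and *Erbb3*. These 7 genes were taken by name from the 16494 genes of the table. They were chosen by the level of *Ereg* in endothelial cells, which had been seen to be higher in the transgenic mice of the same data, so their values in endothelial cells are given as a description with no test. Single cells came from the lower abdominal muscle (LAM) of male FVB/N mice aged 9 to 10 weeks, 3 wild type (WT) and 3 Aromhum littermates. Aromhum mice carry the human aromatase gene *CYP19A1* and are labelled with scrotal hernia. The transgene is a genomic fragment with its own promoters and is expressed in several tissues, so it marks no single cell type. Each mouse gave 1 library and is 1 replicate.

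EGF-family ligands are made as membrane proteins, and proteases such as ADAM17 release them to act on the same cell or on its neighbours. Epiregulin, amphiregulin and HB-EGF bind EGFR, and neuregulin 1 binds ERBB3 and ERBB4. ERBB2 has no known ligand and signals as the partner of the others, and ERBB3 has little kinase activity of its own and needs such a partner. The receptors signal to the ERK and PI3K pathways. In nerve, neuregulin 1 acts on Schwann cells through ERBB2 and ERBB3, and in injured muscle amphiregulin from regulatory T cells acts on muscle stem cells.

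*Ereg* and *Areg* are neighbours on mouse chromosome 5. On GRCm38 (GENCODE M21, plus strand) *Ereg* spans 91074622 to 91093646 and *Areg* spans 91139599 to 91148432, with 45953 bases from the end of the first to the start of the second. *Egfr* and *Erbb2* lie on chromosome 11. Promoter windows, from 250 bases before to 50 bases after the start of the gene, were taken for *Areg*, *Egfr* and *Erbb2* from RefSeq (GRCm38.p6). The window of *Hbegf* was not analysed here. The window of *Areg*, chr5:91139349-91139648 on the plus strand, is shown because it alone of the 3 held a searched motif. Its capitals mark the cAMP response element, which starts 61 bases before the start of the gene.

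Areg: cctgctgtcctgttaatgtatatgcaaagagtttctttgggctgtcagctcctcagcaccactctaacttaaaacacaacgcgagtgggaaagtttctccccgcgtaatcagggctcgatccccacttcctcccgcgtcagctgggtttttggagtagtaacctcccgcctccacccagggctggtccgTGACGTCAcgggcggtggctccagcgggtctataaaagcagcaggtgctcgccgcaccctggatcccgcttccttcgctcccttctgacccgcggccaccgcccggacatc

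The motifs were searched on both strands in 32544 windows of 300 bases. The cAMP response element TGACGTCA was in 1.80% of them, the AP-1 motif TGANTCA in 7.79% and the full palindromic estrogen response element in 0.0707%. The windows of *Egfr* and *Erbb2* held none of the 3. The *Areg* window held the first alone, so no match there overlaps another, and a match describes letters only.

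The 6 libraries held 63647 barcodes and between 64958237 and 111826460 unique molecular identifiers (UMIs) each. Median UMIs per barcode were 4728.5 to 5897 in WT mice and 6673 to 8727 in Aromhum mice. *CYP19A1* had 770 to 797 UMIs in each Aromhum mouse and 0 in each WT mouse. In all, 471 barcode sequences occurred in 2 or more libraries, which made 1.37% to 1.63% of the barcodes of a mouse. Clusters, made without the 7 genes, were named "-like" from marker genes, and a level (CPM) is the UMIs of a gene per 1000000 UMIs of that cell type in that mouse. Aromhum replicate 3 stood apart from the other Aromhum mice, with 83 macrophage-like cells against 1609 and 883, and the pairs of a gene and a cell type whose call turned on leaving it out are given with and without it.

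Fibroblast-like cells held most *Ereg* UMIs in every mouse. Their share was 76.7%, 58.8% and 50.9% in WT replicates and 91.8%, 90.3% and 68.4% in Aromhum replicates 1 to 3. Pooled over mice it was 89.3% of 20256 UMIs, of which Aromhum replicates 1 and 2 gave 9686 and 8989, and endothelial-like cells held 42 UMIs. *Nrg1* had 57.6%, 30.4% and 37.1% of its UMIs in fibroblast-like cells of WT replicates and 81.7%, 85.0% and 84.9% in those of Aromhum replicates 1 to 3. In WT replicate 2 macrophage-like cells held more of it, 36.3%, and the WT shares rest on 35 to 191 UMIs.

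No cell type held most *Areg* UMIs in every mouse. Unnamed clusters held 49.7% to 57.5% of them in WT mice and 50.3% in Aromhum replicate 3, macrophage-like cells held the most in Aromhum replicate 1 (50.9%) and fibroblast-like cells in Aromhum replicate 2 (35.7%). *Hbegf* had 29.3% to 53.2% of its UMIs in endothelial-like cells, and *Egfr* had 75.1% to 86.8% in fibroblast-like cells. *Erbb3* had 46.5% to 84.2% in glia-like cells. *Erbb2* had 24.6% to 61.2% in fibroblast-like cells, and in WT replicate 3 endothelial-like cells held more of it (31.1%).

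**Figure D1:**
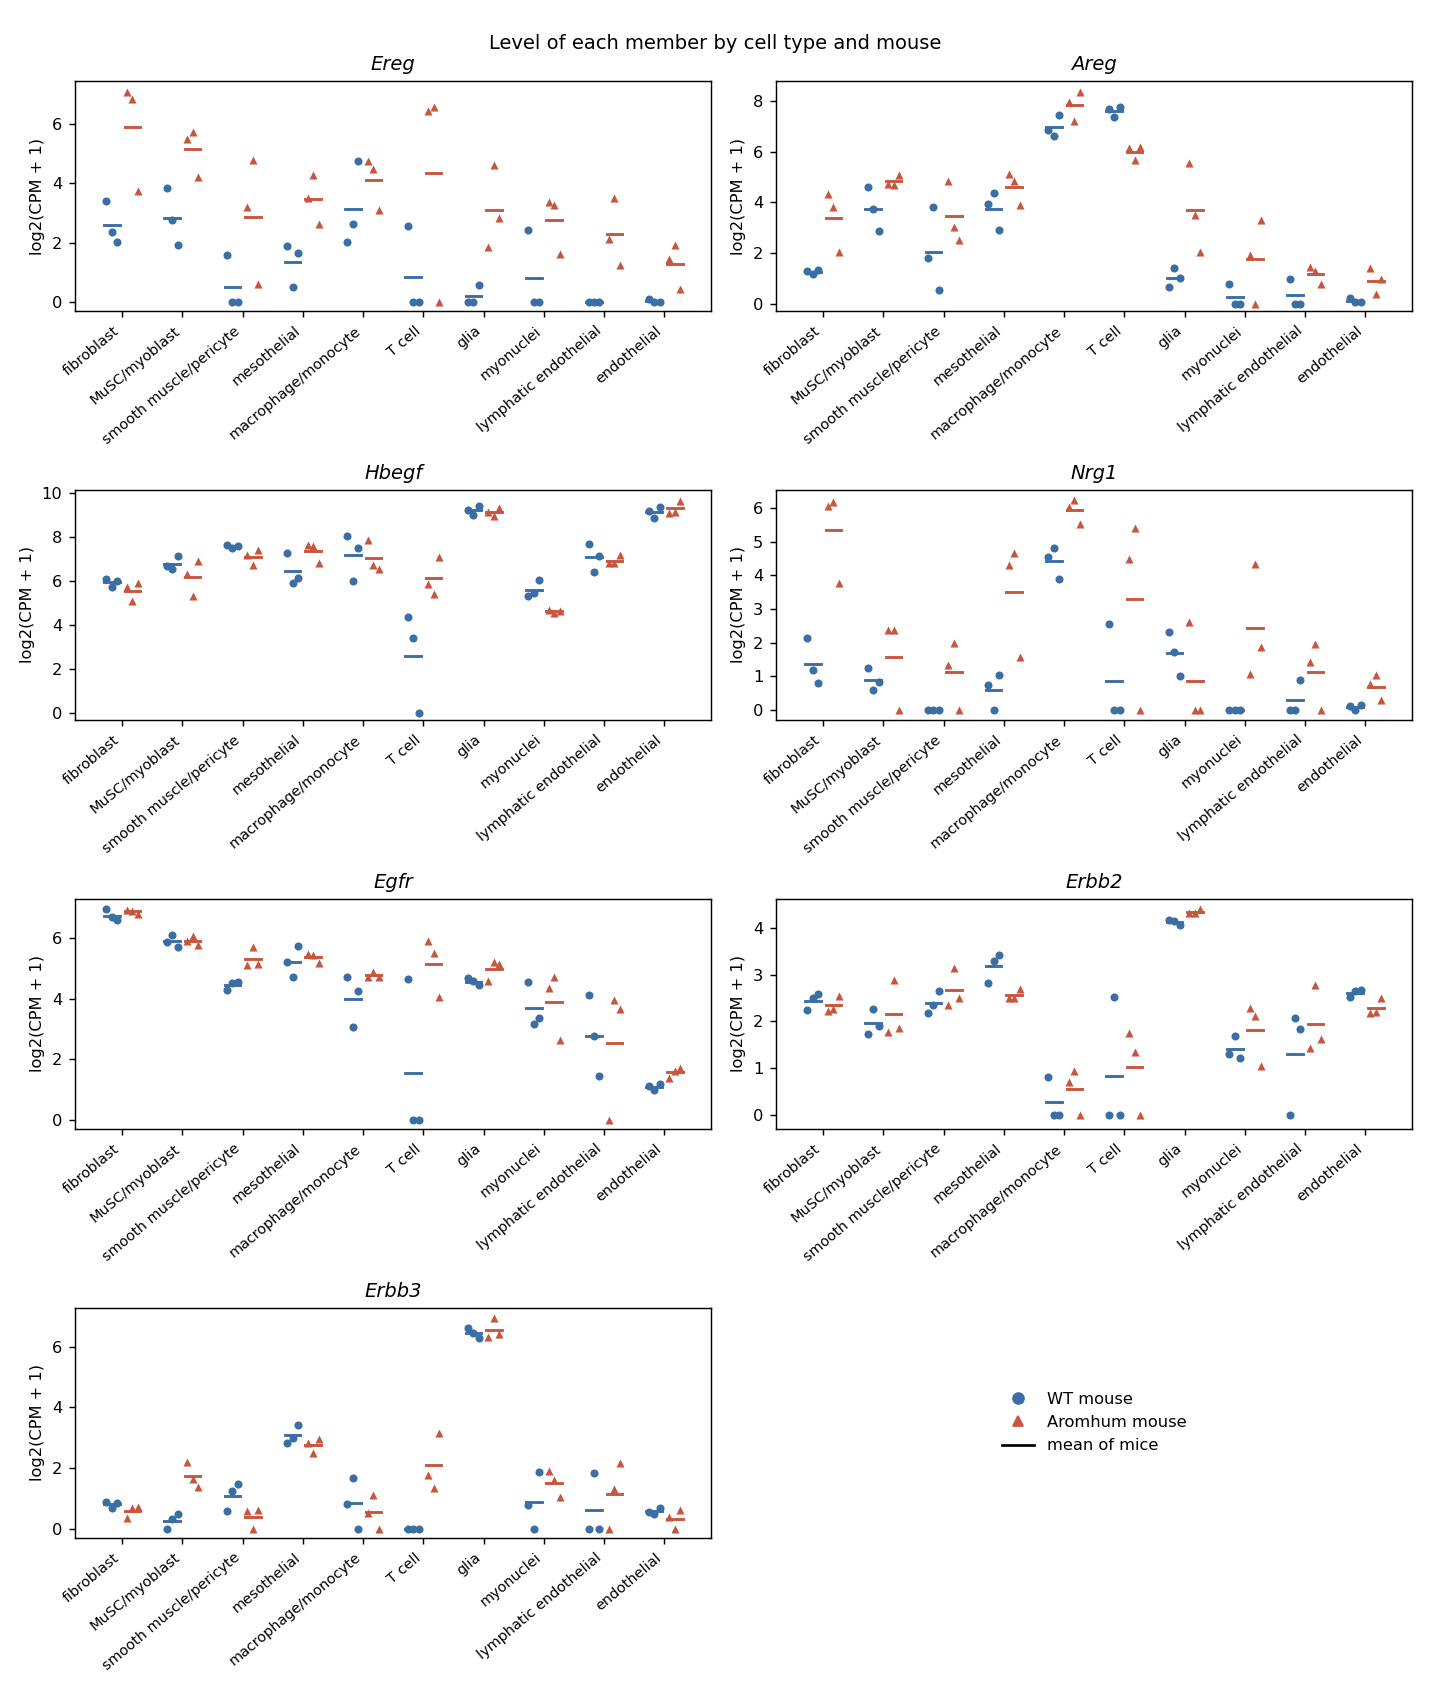
Level of each of the 7 genes in 10 cell types, as log2(CPM + 1), with WT mice as blue circles, Aromhum mice as red triangles and the mean of the log values as a line. Ereg lies near 0 in endothelial-like cells, where no mouse exceeds 2.84 CPM, while Hbegf is highest in endothelial-like and glia-like cells and Erbb3 in glia-like cells.

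Endothelial cells were where *Ereg* had been picked, and its mean level there was higher at the finest clustering used, where a cycling cluster took that name. In endothelial-like cells *Ereg* was at 0.0776, 0 and 0 CPM in WT replicates 1 to 3 and at 1.71, 2.84 and 0.369 CPM in Aromhum replicates 1 to 3. The groups did not overlap, but the values rest on 1 UMI in all WT mice and 41 UMIs in all Aromhum mice. At a clustering resolution of 1.2, where a cycling cluster was also named endothelial-like, it was at 0.0715, 0.103 and 0.0887 CPM in WT replicates and 13.8, 8.80 and 1.03 CPM in Aromhum replicates 1 to 3. In this contrast 14.5% of 12091 genes passed the test across all genes, and nothing is read from that about the 7 genes, since the contrast chose them. The UMIs were not held by 1 kind of endothelial-like cell: in Aromhum mice 14 were in capillary-like, 14 in venular-like and 5 in arterial-like cells.

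Markers of some other cell types were higher in endothelial-like cells of Aromhum mice, and those of others were lower or mixed. The summed level of 9 fibroblast markers there was 368 to 522 CPM in WT mice and 528 to 943 CPM in Aromhum mice, all 9 were higher in the Aromhum mean, and none was at 0 in any mouse. As a percent of the level in fibroblast-like cells of the same mouse, *Ereg* stood at 1.28%, 2.50% and 3.01% in Aromhum replicates 1 to 3. The 9 markers stood at 0.744% to 1.17%, 0.750% to 1.73% and 1.17% to 2.21% in the same mice. *Ereg* was above the highest marker in each of them, while its exact 95% counting intervals, 0.745% to 2.05%, 1.50% to 3.90% and 0.978% to 7.03%, reached into the marker range in each. Mesothelial markers summed to 4.27 to 9.67 CPM in endothelial-like cells of WT mice and 12.3 to 22.5 CPM in those of Aromhum mice, with 7 of 8 higher in the Aromhum mean. Macrophage markers summed to 26.6 to 49.98 CPM and 48.9 to 193 CPM, which overlapped, with 10 of 10 higher. Up to 2 markers of each of these lists were at 0 in a mouse. Myonuclei markers went the other way, at 158 to 265 CPM in WT mice and 77.9 to 113 CPM in Aromhum mice, with 0 of 9 higher. Of T cell, glia and smooth muscle/pericyte markers 3 of 8, 3 of 9 and 3 of 10 were higher. MuSC/myoblast markers summed to 224 to 356 CPM and 768 to 924 CPM, with 2 of 7 higher. The part of RNA from any of these cell types in the endothelial values was not tested.

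The same UMIs can be given as a share of cells with an *Ereg* UMI, which adds no independent value for endothelial-like cells. Thinned to 1000 UMIs per cell, 0.0905% of 14371 endothelial-like cells had one, against 0.244% before thinning at a median depth of 3376 UMIs. In myonuclei-like cells the thinned share was 0.134% (0.445% before thinning, median depth 2096 UMIs), and in glia-like cells 0.306% (0.587% before thinning, median depth 3064 UMIs). In fibroblast-like cells the thinned shares were 0.575%, 0.235% and 0.171% in WT replicates and 5.68%, 4.99% and 0.609% in Aromhum replicates 1 to 3 (9.56% of all these cells before thinning, median depth 9769 UMIs).

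**Figure D2:**
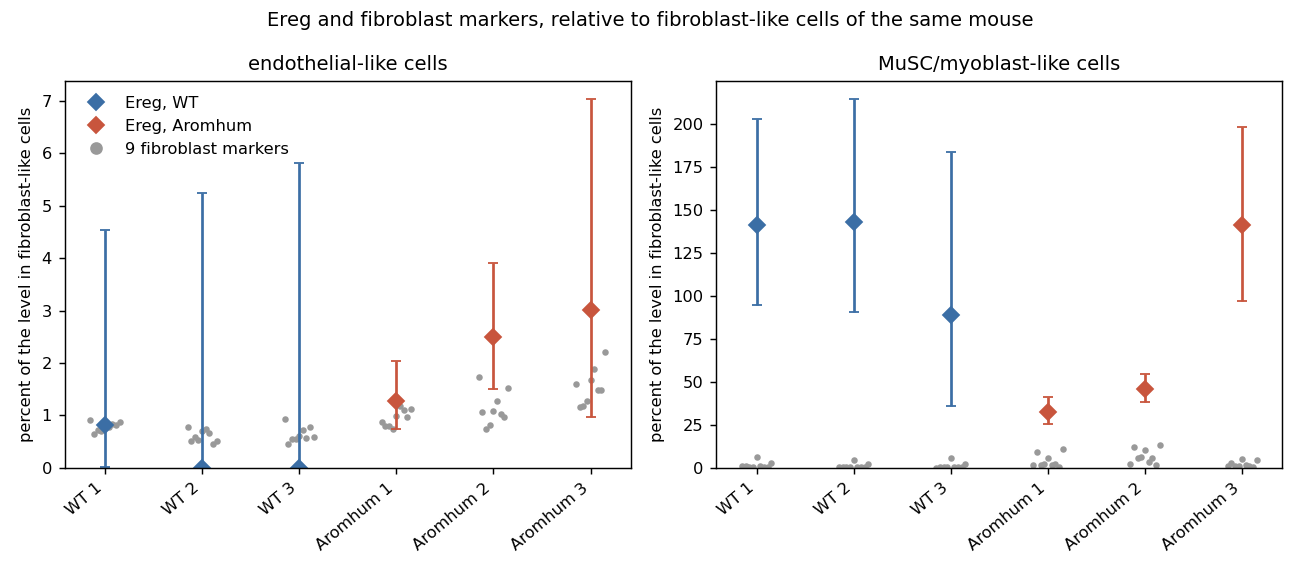
Ereg (diamonds, with exact 95% counting intervals) and 9 fibroblast markers (grey points) in endothelial-like and MuSC/myoblast-like cells of each mouse, as a percent of the level in fibroblast-like cells of that mouse. The 2 vertical scales differ: in endothelial-like cells of Aromhum mice Ereg stands at 1.28% to 3.01%, near the markers, and in MuSC/myoblast-like cells of those mice at 32.7% to 141%, above the markers.

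Of the other ligands in endothelial-like cells, *Areg* had 4 UMIs in all WT mice and 31 in all Aromhum mice, and *Nrg1* had 3 and 17. *Hbegf* was the ligand these cells carried in number, at 573, 456 and 651 CPM in WT replicates and 544, 552 and 797 CPM in Aromhum replicates 1 to 3, and the groups overlapped. Venular-like cells held 993, 952 and 1191 CPM in WT replicates and 570, 548 and 968 CPM in Aromhum replicates 1 to 3. Arterial-like cells held 549, 443 and 606 CPM in WT replicates and 645, 615 and 912 CPM in Aromhum replicates 1 to 3. All Aromhum mice were above all WT mice in *Hbegf* of arterial-like cells, while in venular-like cells the groups overlapped at Aromhum replicate 3. Within the limits on genes, UMIs and mitochondrial UMIs that the study states, the groups overlapped in arterial-like cells too. Of the receptors in endothelial-like cells, *Egfr* was at 1.16, 0.995 and 1.27 CPM in WT replicates and 1.61, 2.09 and 2.29 CPM in Aromhum replicates 1 to 3, all higher. *Erbb2* was at 4.73, 5.27 and 5.37 CPM in WT replicates and 3.53, 3.58 and 4.65 CPM in Aromhum replicates 1 to 3, all lower. Within the study's stated limits the groups overlapped for both *Egfr* and *Erbb2*. There *Erbb2* averaged 3.37 CPM in WT mice and 3.84 CPM in Aromhum mice, the other direction. *Erbb3* was at 0 to 0.586 CPM over the 6 mice, and the groups overlapped. For *Erbb2* endothelial-like cells ranked 4 of 10 cell types by mean level. The type above, smooth muscle/pericyte-like cells, was higher in 3 of 6 mice, and the type below, fibroblast-like cells, was lower in 3 of 6, so this rank was not set apart.

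Outside endothelial-like cells the genotypes were compared in 9 cell types with edgeR's quasi-likelihood test on UMI sums per mouse. A gene was called at a Benjamini-Hochberg adjusted p under 0.05 over all genes tested in that cell type. Of 63 pairs of a gene and a cell type, 35 passed the filter on low counts, which a gene can pass through the group where it is high, and 5 were called. In fibroblast-like cells 3 of the 7 genes were called, all higher in Aromhum mice, where 12.9% of 14034 genes were called, 7.02% higher and 5.84% lower. In MuSC/myoblast-like cells 1 was called, higher in Aromhum mice (3.13% of 8646 genes, 1.55% higher and 1.58% lower). In T cell-like cells 1 was called, lower in Aromhum mice (0.66% of 2880 genes, 0.0347% lower, which is this gene alone). In lymphatic endothelial-like cells edgeR called 0 of 7631 genes, with 518 at an unadjusted p under 0.05, and DESeq2 called 11. In sums of this kind, fewer cells with a transcript and less of it per cell cannot be told apart.

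**Figure D3:**
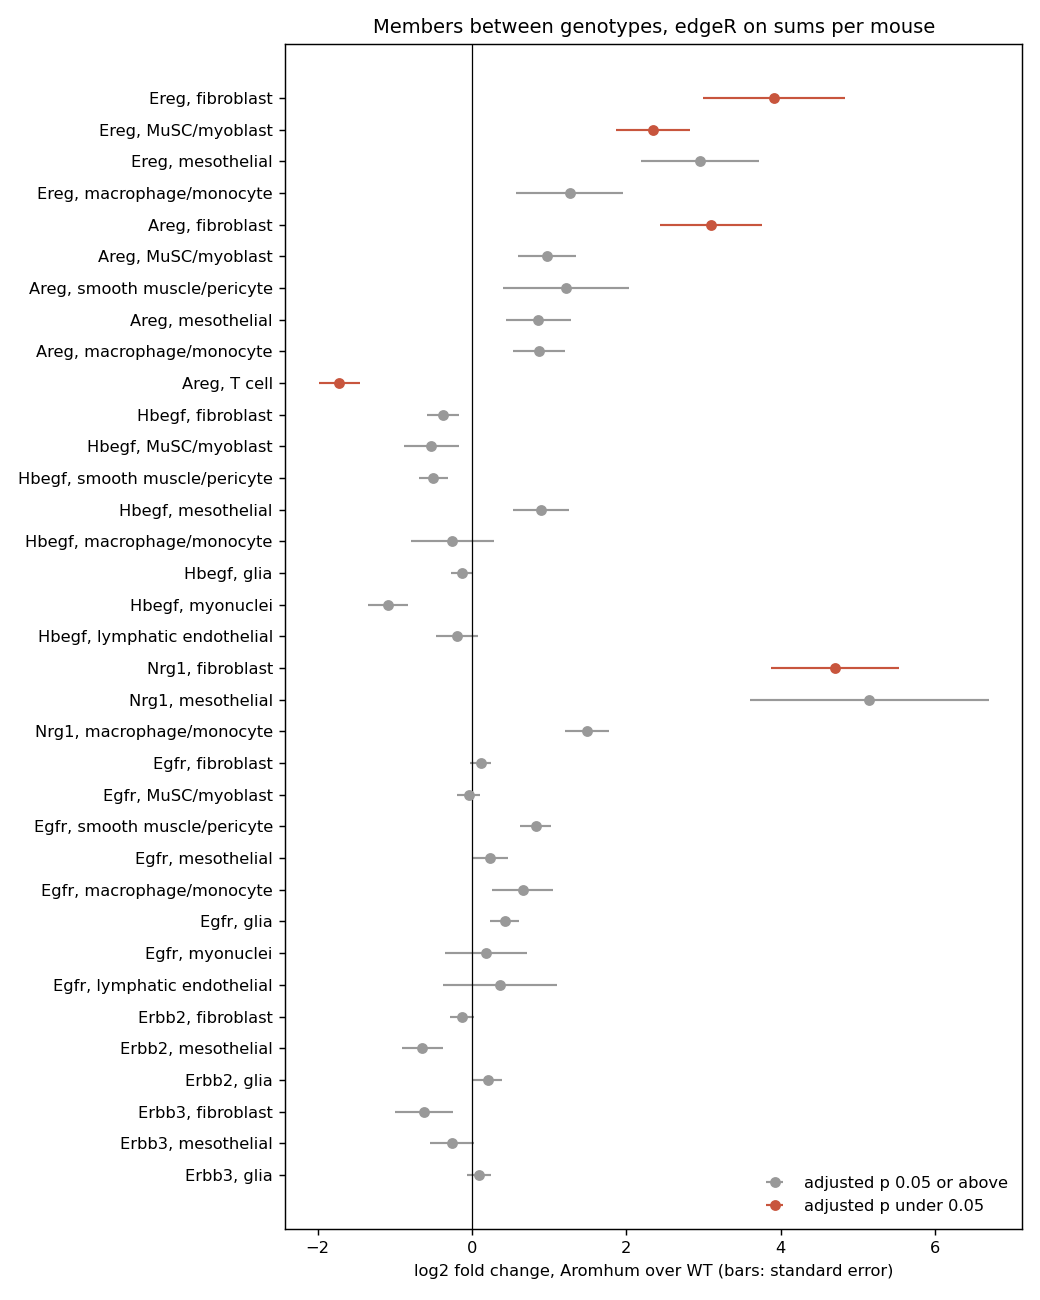
Log2 fold change of Aromhum over WT mice, with its standard error as a bar, for the 35 pairs of a gene and a cell type that passed the filter on low counts in edgeR. The 5 called pairs are red: Ereg, Areg and Nrg1 in fibroblast-like cells and Ereg in MuSC/myoblast-like cells to the right of 0, and Areg in T cell-like cells at −1.72.

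*Ereg*, *Areg* and *Nrg1* rose in fibroblast-like cells of Aromhum mice. *Ereg* was at 9.54, 4.12 and 3.10 CPM in WT replicates and 134, 114 and 12.3 CPM in Aromhum replicates 1 to 3, a log2 fold change of 3.92 (SE 0.92, edgeR adjusted p = 0.0403). The groups did not overlap, and Aromhum replicate 3 was close above WT replicate 1. The same mice chose *Ereg* in endothelial cells, so this test is not independent of the choice. *Nrg1* was at 3.36, 1.28 and 0.745 CPM in WT replicates and 65.3, 72.2 and 12.6 CPM in Aromhum replicates 1 to 3, a log2 fold change of 4.70 (SE 0.83, edgeR adjusted p = 0.0239). *Areg* was at 1.44, 1.23 and 1.49 CPM in WT replicates and 19.1, 13.1 and 3.12 CPM in Aromhum replicates 1 to 3, a log2 fold change of 3.09 (SE 0.66, edgeR adjusted p = 0.0333). For each of these ligands the lowest Aromhum mouse was replicate 3, and with all barcodes it was still above every WT mouse.

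The other genes were not called in fibroblast-like cells. *Egfr*, a receptor of *Ereg* and *Areg*, was at 96.2 to 124 CPM in WT mice and 112 to 122 CPM in Aromhum mice (log2 fold change 0.11, SE 0.14, edgeR adjusted p = 0.604). *Hbegf* had a log2 fold change of −0.38 (SE 0.21, adjusted p = 0.252), *Erbb2* of −0.13 (SE 0.15, adjusted p = 0.581) and *Erbb3* of −0.62 (SE 0.37, adjusted p = 0.286). *Erbb3* was at 0.287 to 0.857 CPM in these cells over the 6 mice.

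The 3 fibroblast calls depended on the mice and on the cells kept. Leaving out any WT mouse, or Aromhum replicate 1 or 2, ended all 3, with edgeR adjusted p of 0.0846 to 0.140 for *Ereg*, 0.0972 to 0.123 for *Areg* and 0.0608 to 0.104 for *Nrg1*. In those fits 0.0213% to 1.08% of all genes tested were called, against 12.9% with all mice. Without Aromhum replicate 3 the adjusted p was 0.00141 for *Ereg*, 0.000370 for *Areg* and 0.000993 for *Nrg1*, where 29% of genes were called. Within the limits on genes, UMIs and mitochondrial UMIs that the study states, none was called, at log2 fold changes of 2.99 (adjusted p = 0.206), 3.20 (0.172) and 2.68 (0.218) in the same order, where 0.00913% of genes were called. There Aromhum replicate 3 held *Nrg1* at 0.480 CPM, below every WT mouse (0.863 to 1.96 CPM). It held *Ereg* at 3.60 CPM, below WT replicate 1 (6.23 CPM), while for *Areg* the groups did not overlap. Macrophage markers summed to 15.8 to 18.8 CPM in fibroblast-like cells of WT mice and 23.4 to 54.3 CPM in those of Aromhum mice, with 9 of 10 higher in the Aromhum mean, and their part in these values was not tested.

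Sub-clusters of fibroblast-like cells held *Ereg* and *Nrg1* in unequal amounts. Dmknhi cells, rich in the dermokine gene, held *Ereg* at 27.6, 13.1 and 7.64 CPM in WT replicates and 168, 192 and 18.3 CPM in Aromhum replicates 1 to 3. They held little *Nrg1*, at 0.587 to 1.10 CPM in WT mice and 1.09 to 5.59 CPM in Aromhum mice, and for both genes Aromhum replicate 3 was below WT replicate 1. Esr1hi cells, rich in the estrogen receptor gene *Esr1*, held both. There *Ereg* was at 8.84, 2.03 and 2.62 CPM in WT replicates and 101, 102 and 7.91 CPM in Aromhum replicates 1 to 3, and *Nrg1* at 10.4, 2.84 and 1.05 CPM in WT replicates and 115, 121 and 35.2 CPM in Aromhum replicates 1 to 3. For *Ereg* Aromhum replicate 3 was below WT replicate 1, and for *Nrg1* the groups did not overlap.

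Sub-clusters were fitted after the data had been seen. In Esr1hi cells, where 17% of 11871 genes were called and 8.21% were higher in Aromhum mice, *Nrg1* (log2 fold change 4.07, SE 0.70, edgeR adjusted p = 0.0110), *Ereg* (3.85, SE 1.03, adjusted p = 0.0398) and *Egfr* (0.92, SE 0.20, adjusted p = 0.0208) were called. *Areg* was not called there (1.38, SE 0.81, adjusted p = 0.271), and Aromhum replicate 3, at 0.879 CPM, was below every WT mouse. *Egfr* there was at 44.4, 41.8 and 44.5 CPM in WT replicates and 97.7, 83.2 and 62.1 CPM in Aromhum replicates 1 to 3, which did not overlap. In Dmknhi cells, where 0.331% of 10890 genes were called, *Ereg* (2.85, SE 0.80, adjusted p = 0.149), *Areg* (2.89, SE 0.66, adjusted p = 0.104) and *Egfr* (−0.11, SE 0.19, adjusted p = 0.831) were not. Tenocyte-like cells held *Ereg* at 8.40 to 9.01 CPM in WT mice and 8.19 to 24.7 CPM in Aromhum mice (0.86, SE 0.39, edgeR adjusted p = 0.281, with 1.31% of genes called), which overlapped. The difference between sub-clusters was not tested.

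Some sub-clusters had 20 cells in too few mice for a test. Mmp3hi cells, rich in the matrix protease gene *Mmp3*, reached 20 cells in WT replicate 1, with 0 *Ereg* UMIs, and in Aromhum replicates 1 and 2, with 518 and 168 CPM. They held *Nrg1* at 7.69 CPM, from 2 UMIs, in WT replicate 1 and at 155 and 167 CPM in Aromhum replicates 1 and 2, against 115 and 121 CPM in Esr1hi cells of those Aromhum mice. As to the cells behind these values, Mmp3hi cells numbered 23, 0 and 0 in WT replicates and 279, 484 and 1 in Aromhum replicates 1 to 3. Esr1hi cells, named partly by estrogen-induced genes, numbered 350, 226 and 162 in WT replicates and 1426, 1849 and 700 in Aromhum replicates 1 to 3. Dmknhi cells numbered 677, 263 and 146 in WT replicates and 872, 1582 and 543 in Aromhum replicates 1 to 3. Sub-clusters were named by genes that may themselves differ between genotypes, so these numbers are not compared. In the sums over fibroblast-like cells, the number of cells in a sub-cluster and the level of *Ereg* or *Nrg1* within it cannot be told apart. An unnamed sub-cluster led by *Ahsg*, *Fetub* and *Cxcl5* reached 20 cells in Aromhum mice alone and held *Ereg* at 134, 156 and 59.4 CPM. In that sub-cluster Aromhum replicate 3 had more *Ereg* than in Dmknhi or Esr1hi cells.

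**Figure D4:**
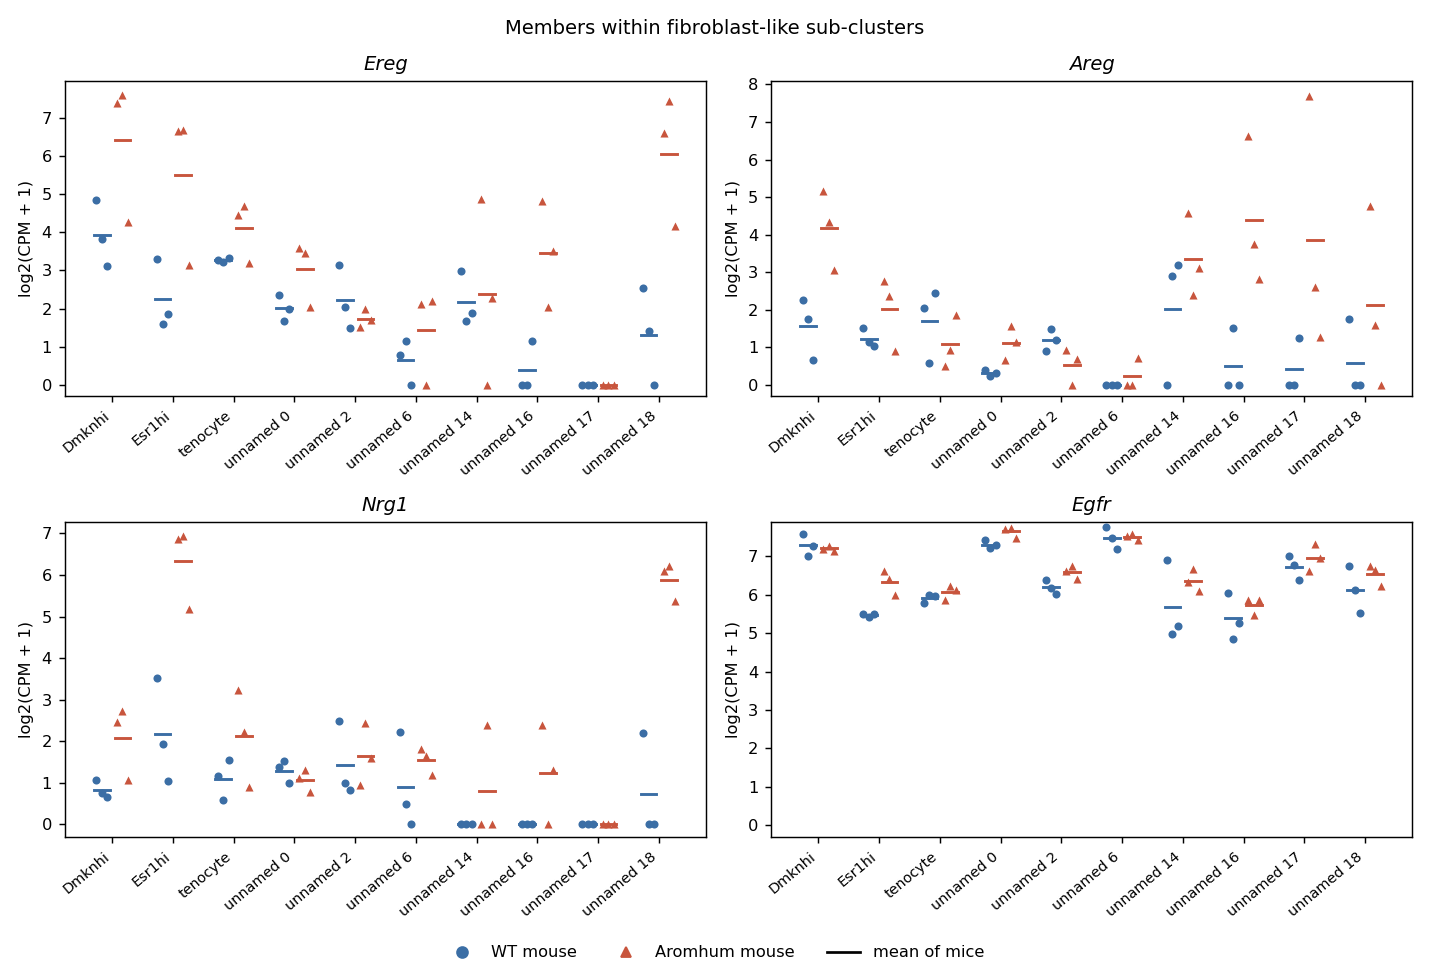
Ereg, Areg, Nrg1 and Egfr as log2(CPM + 1) in the 10 fibroblast-like sub-clusters that reached 20 cells in every mouse, with WT mice as blue circles, Aromhum mice as red triangles and the mean of the log values as a line. Nrg1 in Aromhum mice is high in Esr1hi cells (35.2 to 121 CPM) and in unnamed sub-cluster 18, which is led by endothelial genes, and Ereg is high in those 2 and in Dmknhi cells.

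MuSC/myoblast-like cells, the muscle stem cells and their progeny, carried *Ereg* in both genotypes, and more of it in Aromhum mice. Its level was 13.5, 5.87 and 2.76 CPM in WT replicates and 43.9, 52.0 and 17.3 CPM in Aromhum replicates 1 to 3, with no overlap (log2 fold change 2.35, SE 0.48, edgeR adjusted p = 0.0411). These values rest on 59 UMIs in WT mice and 229 in Aromhum mice. In WT mice the level was 89.1% to 143% of that in fibroblast-like cells, while the median fibroblast marker stood at 0.483% to 0.940%. In Aromhum replicates 1 to 3 it was 32.7%, 45.7% and 141%, and the median marker stood at 2.08%, 6.01% and 1.29%. The call was kept without WT replicate 1 (adjusted p = 0.0334, 1.75% of genes called) or Aromhum replicate 3 (0.00449, 11.6% called), and was lost without any 1 of the other 4 mice (0.118 to 0.184, with 0% to 0.0224% of genes called). Within the study's stated limits *Ereg* did not pass the filter on low counts in these cells, and its level was 25.5, 0 and 0 CPM in WT replicates and 23.7, 56.1 and 33.6 CPM in Aromhum replicates 1 to 3, which overlapped.

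*Egfr* was present in MuSC/myoblast-like cells of every mouse, at 51.6 to 67.9 CPM, and was not called (log2 fold change −0.04, SE 0.15, edgeR adjusted p = 0.900). *Areg* was at 6.30 to 23.2 CPM in WT mice and 24.5 to 33.0 CPM in Aromhum mice there, which did not overlap (0.97, SE 0.38, adjusted p = 0.172). Fibroblast markers summed to 1002 to 1267 CPM in these cells of WT mice and 1840 to 4672 CPM in those of Aromhum mice, and their part in these values was not tested.

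*Areg* fell in T cell-like cells of Aromhum mice. It was at 205, 162 and 218 CPM in WT replicates and 68.8, 49.4 and 70.8 CPM in Aromhum replicates 1 to 3, with no overlap (log2 fold change −1.72, SE 0.26, edgeR adjusted p = 0.0312). The levels rest on 16 to 42 UMIs per WT mouse and 9 to 32 per Aromhum mouse, in 21 to 182 cells. Within the study's stated limits no WT mouse had 20 of these cells, so the genotypes could not be compared. Aromhum replicates 1 and 2 were there at 133 and 139 CPM, from 7 and 15 UMIs. The call was lost without any 1 mouse (adjusted p 0.0943 to 0.215, with 0% to 0.0295% of genes called) other than Aromhum replicate 3 (0.00919, with 7.37% of genes called). Fibroblast markers summed to 357 to 6512 CPM in these cells of WT mice and 7721 to 17542 CPM in those of Aromhum mice, and T cell markers to 3337 to 3508 CPM and 2061 to 3357 CPM, with up to 2 markers of each list at 0 in a mouse. Their part in the fall of *Areg* was not tested. *Ereg* in T cell-like cells came from 97 UMIs in 10 cells.

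Macrophage-like cells carried *Areg* and *Nrg1* in every mouse. *Nrg1* was at 22.2, 27.1 and 14.0 CPM in WT replicates and 64.5, 74.0 and 45.1 CPM in Aromhum replicates 1 to 3, with no overlap. Its log2 fold change of 1.49 (SE 0.29) missed the threshold (edgeR adjusted p = 0.0605), in a cell type where 0.92% of 7822 genes were called. With the replicate number as a block it was 1.52 and was called (adjusted p = 0.0156, with 1.55% of genes called). Without Aromhum replicate 3 it was 1.65 and was called (edgeR adjusted p = 0.0420, with 0.948% of genes called), and within the study's stated limits it was 0.37 (adjusted p = 0.779). In WT mice the level of *Nrg1* was 659% to 2123% of that in fibroblast-like cells, where fibroblast markers in macrophage-like cells stood at medians of 5.30% to 7.67%. In Aromhum replicates 1 to 3 it was 98.8%, 103% and 359%, and the marker medians were 12.8%, 17.2% and 17.8%. Fibroblast markers summed to 3190 to 5432 CPM in macrophage-like cells of WT mice and 7661 to 10164 CPM in those of Aromhum mice, with 8 of 9 higher in the Aromhum mean and none at 0 in any mouse, and their part in the *Nrg1* values was not tested. *Areg* was at 114, 95.9 and 172 CPM in WT replicates and 248, 148 and 328 CPM in Aromhum replicates 1 to 3, which overlapped (0.87, SE 0.34, adjusted p = 0.435).

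The highest levels of *Areg* were not set in order by these data. It averaged 184 ± 88.2 CPM (SD, n = 6) in macrophage-like cells and 129 ± 74.9 CPM in T cell-like cells, and the first was higher in 3 of 6 mice. An unnamed cluster of 1060 cells led by *Lyz1*, *Ccr7* and *Napsa* held *Areg* at 201 to 336 CPM over the 6 mice. The same cluster held *Ereg* at 29.0, 23.8 and 40.5 CPM in WT replicates and 13.6, 37.3 and 74.7 CPM in Aromhum replicates 1 to 3, which overlapped. In each WT mouse this was above the *Ereg* level of fibroblast-like cells. *Nrg1* averaged 41.2 ± 24.2 CPM in macrophage-like cells and 25.9 ± 33.5 CPM in fibroblast-like cells, and the first was higher in 5 of 6 mice.

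*Hbegf*, on chromosome 18, was not set apart between glia-like and endothelial-like cells, at 573 ± 74.1 and 596 ± 117 CPM (SD, n = 6), and the endothelial level was the higher in 2 of 6 mice. An unnamed cluster led by *Rgs5*, *Cox4i2* and *Casq2* held *Hbegf* at 527 to 674 CPM. *Rgs5* is also on the marker list for smooth muscle/pericyte cells, so the cells given that name may not be all of that kind. Among the other named types, smooth muscle/pericyte-like cells averaged 164 ± 35.1 CPM and macrophage-like cells 157 ± 81.4 CPM, and the first was higher in 3 of 6 mice. Within glia it was at 1068 to 1436 CPM in myelinating-like cells and 38.4 to 129 CPM in an unnamed sub-cluster led by *Lyz2* and *Cspg5*. In myonuclei-like cells *Hbegf* was at 38.5, 43.3 and 63.9 CPM in WT replicates and 24.9, 22.1 and 24.2 CPM in Aromhum replicates 1 to 3. All Aromhum mice were lower, and the log2 fold change of −1.09 (SE 0.26) was not called (edgeR adjusted p = 0.129), where 0.347% of 7502 genes were called. With the replicate number as a block it was −1.09 and was called (adjusted p = 0.0194, with 3.28% of genes called). Endothelial markers in these cells summed to 524 to 745 CPM in WT mice and 163 to 315 CPM in Aromhum mice, with 0 of 9 higher in the Aromhum mean and none at 0 in any mouse, and their part in the *Hbegf* values was not tested.

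*Egfr* was highest in fibroblast-like cells, at 113 ± 11.1 CPM (SD, n = 6). MuSC/myoblast-like cells were lower in 6 of 6 mice, at 59.6 ± 6.54 CPM, and mesothelial-like cells were lower than these in 5 of 6 mice, at 39.4 ± 9.16 CPM. In smooth muscle/pericyte-like cells it was at 18.5, 22.2 and 22.3 CPM in WT replicates and 33.4, 50.9 and 34.2 CPM in Aromhum replicates 1 to 3. All Aromhum mice were higher, but the log2 fold change of 0.83 (SE 0.20) missed the threshold (edgeR adjusted p = 0.0580), where 1.99% of 9412 genes were called. Without Aromhum replicate 3 it was 0.91 and was called (adjusted p = 0.0200, with 11.6% of genes called). Fibroblast markers in these cells summed to 4092 to 6395 CPM in WT mice and 6601 to 9241 CPM in Aromhum mice, and their part was not tested. The unnamed cluster led by *Rgs5* held *Egfr* at 8.69 to 11.9 CPM over the 6 mice, and the groups overlapped there.

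*Erbb2* and *Erbb3* were both highest in glia-like cells. *Erbb3* was at 91.0 ± 16.5 CPM (SD, n = 6) there and at 6.72 ± 1.65 CPM in mesothelial-like cells, the next type. *Erbb2* was at 17.9 ± 1.69 CPM in glia-like and 6.54 ± 2.15 CPM in mesothelial-like cells, and for both genes glia-like cells were the higher in 6 of 6 mice. Within glia, *Erbb3* was at 187 to 345 CPM in the sub-cluster led by *Lyz2* and *Cspg5*, 121 to 192 CPM in non-myelinating-like cells and 38.4 to 71.3 CPM in myelinating-like cells. Neither receptor was called between genotypes in glia-like cells, with log2 fold changes of 0.09 (SE 0.16, edgeR adjusted p = 0.897) for *Erbb3* and 0.20 (SE 0.18, adjusted p = 0.772) for *Erbb2*, where 0.396% of 9604 genes were called.

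In mesothelial-like cells none of the 7 genes was called, where 0.222% of 11711 genes were. *Ereg* was at 2.69, 0.439 and 2.14 CPM in WT replicates and 10.2, 18.2 and 5.16 CPM in Aromhum replicates 1 to 3 (log2 fold change 2.95, SE 0.77, edgeR adjusted p = 0.0975). *Nrg1* was at 0.674, 0 and 1.07 CPM in WT replicates and 18.8, 24.5 and 1.95 CPM in Aromhum replicates 1 to 3, from 2 UMIs in all WT mice and 507 in all Aromhum mice, so it passed the filter on low counts through the Aromhum mice alone. Without Aromhum replicate 3 *Ereg* (edgeR adjusted p = 0.00796), *Nrg1* (0.00108) and *Areg* (1.13, adjusted p = 0.0376) were called, where 13.3% of genes were. Fibroblast markers summed to 16993.7 to 19409.4 CPM in mesothelial-like cells of WT mice and 20153.9 to 21478.5 CPM in those of Aromhum mice. Of the 9 markers 7 were higher in the Aromhum mean. *Ereg* stood at 7.61%, 16.0% and 42.1% of the level in fibroblast-like cells of Aromhum replicates 1 to 3. The median marker stood at 11.1%, 14.1% and 11.4%. The 9 markers ranged from 7.18% to 89.6%, 4.36% to 93.6% and 4.00% to 69.2% in the same mice, and *Ereg* lay within each range. The part of fibroblast RNA in the *Ereg*, *Nrg1* and *Areg* values was not tested. Without doublets *Ereg* was at 2.87, 0.459 and 2.50 CPM in WT replicates and 3.62, 12.1 and 0.954 CPM in Aromhum replicates 1 to 3, which overlapped (1.88, adjusted p = 0.408). *Erbb2* was at 6.06 to 9.64 CPM in WT mice and 4.63 to 5.46 CPM in Aromhum mice (−0.64, SE 0.27, adjusted p = 0.224).

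Leaving out Aromhum replicate 3 raised the number of called pairs from 5 to 14. Beside the pairs already given these were, in smooth muscle/pericyte-like cells, *Ereg* (log2 fold change 4.56, edgeR adjusted p = 0.00541) and *Hbegf* (−0.68, adjusted p = 0.0335). The others were *Ereg* in T cell-like cells (5.11, adjusted p = 0.00486) and *Areg* in glia-like cells (4.53, adjusted p = 0.00835, with 1.25% of genes called there). Both these and *Ereg* in smooth muscle/pericyte-like cells did not pass the filter on low counts with all mice, so they are not pairs that gained a call. *Ereg* in T cell-like cells had 1, 0 and 0 UMIs in WT replicates and 36 and 60 in Aromhum replicates 1 and 2. *Areg* in glia-like cells had 10 UMIs in all WT mice and 69 in all Aromhum mice. *Ereg* in smooth muscle/pericyte-like cells had 4, 0 and 0 UMIs in WT replicates and 16 and 44 in Aromhum replicates 1 and 2. It stood there at 6.12% and 23.2% of the level in fibroblast-like cells of those Aromhum mice. Fibroblast markers stood at 6.24% to 32.1% and 6.57% to 32.0%. In WT replicate 1 *Ereg* stood at 21.0% and the markers at 6.99% to 16.4%. The part of fibroblast RNA in this call was not tested.

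Genes that act with this family were counted from lists in fibroblast-like cells, where 7.02% of all genes tested were higher and 5.84% lower in Aromhum mice, so counts of 1 to 3 per list lie near these shares. Of 8 other ligands and receptors 3 were tested and 0 called: *Btc* (log2 fold change 0.16, SE 0.28), *Tgfa* (−0.31, SE 0.37) and *Nrg2* (−0.69, SE 0.47). *Erbb4*, *Nrg3* and *Nrg4* were not analysed here. Of 12 genes of ligand shedding 1 rose and 0 fell, the protease gene *Adam12* (2.50, SE 0.49, edgeR adjusted p = 0.0287). Of 18 inhibitors and turnover genes 1 rose and 1 fell: *Lrig1*, whose product promotes loss of EGFR from the cell, rose by 1.16 (SE 0.18), and *Spry1*, an inhibitor of ERK signalling, fell by 1.19 (SE 0.31). Of 27 adaptors and transducers 0 rose and 3 fell, *Gab1* (−0.95), *Pik3r1* (−0.70) and *Nck1* (−0.43). The list medians were −0.31, 0.07, −0.04 and −0.08 in this order, beside −0.0019 over all genes tested.

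Of 22 ERK target genes tested in fibroblast-like cells 0 rose and 6 fell, where 5.84% of all genes tested were lower. The list median was −0.35, and the 5 largest were the transcription factor genes *Etv1* (log2 fold change −1.25), *Fos* (−1.24), *Myc* (−0.94), *Junb* (−0.93) and *Egr1* (−0.81). Dissociation and stress genes, which share *Fos*, *Junb* and *Egr1* with that list, moved beside them: 1 of 19 rose and 6 fell, with a list median of −0.54, among them *Socs3* (−1.40) and *Zfp36* (−1.36). The part of dissociation in the ERK target values was not tested. In MuSC/myoblast-like cells, where 1.58% of all genes tested were lower, 2 of 19 ERK targets fell, *Fos* (−1.15) and *Myc* (−0.75), as did 5 of 19 dissociation and stress genes, led by *Hspa1a* (−1.76), and *Timp3*, an inhibitor of shedding (−1.43). In the other cell types tested, list calls were *Gab1* in macrophage-like cells (1.49, with 0.92% of genes called) and *Fosl1* (0.92) and *Hspa1b* (−0.93) in smooth muscle/pericyte-like cells (1.99% called). The fits with all mice made 30 list calls in all. Fits repeated with 1 mouse left out made 0 without WT replicate 2 or 3 or Aromhum replicate 1 or 2, 4 without WT replicate 1 and 108 without Aromhum replicate 3. In endothelial-like cells, given as a description, the medians were −0.27 for ERK targets and −0.58 for dissociation and stress genes.

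Genes with a pattern like that of *Ereg* were ranked by the Pearson correlation of log2(CPM + 1) over 62 sums per mouse and cell type, among 10307 genes. The 10 highest were *Greb1* (0.79), *Chrdl2* (0.74), *Pgr* (0.72), *Wisp2* (0.72), *Krt23* (0.71), *Nppc* (0.69), *Esr1* (0.69), *Saa3* (0.69), *Lrrc17* (0.69) and *Htra3* (0.68). *Greb1* and *Pgr* are known estrogen-induced genes, and 5 of the 10 (*Greb1*, *Chrdl2*, *Pgr*, *Nppc* and *Esr1*) are among the markers by which Esr1hi cells were named. Sums of 1 mouse share a library and its depth, and sums of 1 type share its genes, so these values are a description.

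The same measure was taken for the other 6 genes. *Nrg1* was most like *Cd80* (0.77), *Il10* (0.74) and *Saa3* (0.73), and *Areg* like *Slc7a8* (0.82), *Ifi209* (0.79) and *Arl4c* (0.76). *Hbegf* was most like *Rasal2* (0.84), *Stx12* (0.82) and *Rnf213* (0.79), and *Egfr* like *Chpf* (0.93), *Loxl1* (0.89) and *Lrp1* (0.89). *Erbb2* was most like *Kazn* (0.80), *Cd59a* (0.79) and *Rhbdf1* (0.78), and *Erbb3* like *Fgf5* (0.92), *Epb41l4b* (0.90) and *Bche* (0.90).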

How the data were processed

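Libraries were made with the 10x Genomics 3′ kit and the authors deposited raw UMI counts per gene and barcode from Cell Ranger 3.0.2 (mm10 with human *CYP19A1* added). All 63647 barcodes were used, since the limits the study states (200 to 2500 genes, at least 1000 UMIs, at most 5% mitochondrial UMIs) leave 14.2% to 38.0% of the barcodes of a mouse, and they were an alternative. The 7 genes and all lists were chosen with earlier results of these data known.

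Cells were clustered with leidenalg 0.10.2 at resolution 0.8 (33 clusters), leaving out the 7 genes and their other family members, and clusters were named from marker genes. Names rebuilt in this way may differ from the study's. Doublets marked by Scrublet (scanpy 1.11.5), 1.48% to 2.78% per mouse at a common threshold of 0.212, were kept and left out as an alternative. Types that reached 20 cells in every mouse were tested with edgeR 4.0.16 (R 4.3.3: TMM, filterByExpr, quasi-likelihood), with DESeq2 1.42.0 as an alternative, and the scripts were tested on simulated data with known changes. Named list genes are at most the 5 largest past the threshold per list and cell type.

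The study handled 1 mouse of each genotype per date, but the labels do not tie replicate numbers to dates, so the block was an alternative. Mice of the same number deviated together in all 3 pairs in endothelial-like, macrophage-like and myonuclei-like cells (correlations 0.104 to 0.337), and in the other 7 types at least 1 pair was at or under 0.1. In 2 of those, smooth muscle/pericyte-like (0.0727 to 0.246) and MuSC/myoblast-like cells (0.0858 to 0.212), all 3 pairs were still above every pair of unlike numbers (at most 0.0581 and 0.0115).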

Additional observations from a re-analysis of the deposited data

How the results depend on the processing

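Of the 7 genes, 5 pairs of a gene and a cell type were called, against 8 with DESeq2, 15 with no filter on low counts, 9 with the replicate block, 0 within the study's limits and 0 to 14 with 1 mouse left out (14 without Aromhum replicate 3, 1 without WT replicate 1, 0 without any other). List genes called numbered 30, against 88, 61, 76, 2 and 0 to 108 in the same order, and genes called over the 9 types 2444, against 4635 with DESeq2, 3811 with the block, 30 within the limits and 43 to 8251 with 1 mouse left out (8251 without Aromhum replicate 3). The limits leave fewer cells, and T cell-like, glia-like, mesothelial-like and smooth muscle/pericyte-like cells could not be fitted there. *Ereg* in endothelial-like cells was 1.61 CPM higher in Aromhum mice, and 7.80 at resolution 1.2, where a cycling cluster took the endothelial name. All 7 genes kept their highest cell type at both other resolutions and without doublets, and 6 to 7 did with 1 mouse left out (without Aromhum replicate 3 *Hbegf* was highest in glia-like cells). Within the limits 4 did. There *Ereg* was highest in MuSC/myoblast-like cells, at 23.1 ± 21.3 CPM (SD, n = 6), against 17.6 ± 24.7 CPM in fibroblast-like cells. For *Erbb3* and *Erbb2*, glia-like cells had under 20 cells in a mouse and were left out of that ranking, and they still averaged 96.5 and 16.2 CPM in glia-like cells over 5 mice. Among types where at least 1 same-number pair correlated at or under 0.1, the block moved *Areg* in T cell-like cells to an adjusted p of 0.0561 and *Egfr* in smooth muscle/pericyte-like cells to 0.0262 (edgeR). With the block *Ereg* and *Nrg1* in mesothelial-like cells were also called (edgeR adjusted p under 0.05), where 3.70% of genes were. Directions turned in log2 fold changes that were not called. With 1 mouse left out, *Egfr* ranged from −0.14 to 0.076 in MuSC/myoblast-like cells, −0.093 to 1.25 in lymphatic endothelial-like cells and −0.19 to 0.82 in myonuclei-like cells (−0.17 without Aromhum replicate 2), *Erbb3* from −0.099 to 0.20 in glia-like cells, and *Hbegf* from −0.48 to 0.14 in lymphatic endothelial-like and −0.83 to 0.25 in macrophage-like cells. Within the limits *Egfr* turned to 0.26 in MuSC/myoblast-like cells, *Erbb2* to 0.0058 in fibroblast-like cells and *Hbegf* to 0.58 in lymphatic endothelial-like cells. *Egfr* turned to −0.27 in macrophage-like cells without doublets and to −0.11 in Dmknhi cells alone. The cause was not tested. Sub-cluster fits were chosen after seeing the data.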
